A study of Homo sapiens with 4 samples.

Results

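Kinesin motor genes were examined by sequencing of RNA immunoprecipitated from Huh7, a long-established line of human liver cancer cells. The members are the rows of the count table named KIF followed by a number or the letter C, that reached 10 counts in 2 or more of the 4 libraries. Of 44 rows with such a name, 36 met the count limit, out of 19210 rows that met it among the 56303 of the table. They were divided by textbook role into 12 mitotic kinesins, 15 transport kinesins and 9 others, which act on microtubule ends, centrioles or cilia or are less well known.

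The 4 groups, with 1 library each, were the immunoprecipitate (IP) taken with an RBM39 antibody and the input RNA of cells carrying an RBM39 hairpin from a transfected plasmid (shRBM39), and the same 2 fractions of cells carrying a control hairpin (shControl). RBM39 is an RNA-binding splicing factor, and the design asked which mRNAs it binds. An IP with a control antibody was not analysed here, so a ratio of IP over input, called recovery below, cannot be told apart from recovery by other means than RBM39. Total counts were 45812488 in the shRBM39 IP, 22249581 in the shRBM39 input, 41387762 in the shControl IP and 20858382 in the shControl input. With 1 library a group there is no replicate error, and every interval below is a 95% interval of counting error.

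The knockdown was hardly visible in RNA. Levels are given in CPM, counts scaled to library size with the trimmed mean of M values (TMM). The RBM39 level was 370 CPM in the shRBM39 input against 404 in the shControl input, a log2 ratio of -0.13 (-0.17 to -0.08). Its IP levels were 2221 CPM with shRBM39 against 1036 with shControl. The name shRBM39 below is therefore that of the label. All 8 hepatocyte markers examined were detected in the 4 libraries, and albumin had between 29767 and 88991 counts. Their summed level was 12163 CPM in the shRBM39 input against 13066 in the shControl input, while the IPs held 5065 (shRBM39) against 8773 (shControl). Markers of endothelial, fibroblast, immune and neuronal cells summed to 2.76 to 20.6 CPM a list in any library, with KDR and DCN at 0 counts in all 4.

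Kinesins are motors that use ATP to walk along microtubules or, in some families, to take tubulin off microtubule ends. Mitotic kinesins build the spindle, move chromosomes and complete cell division, and most of them are made only in cycling cells, late in the cycle. Transport kinesins carry vesicles, organelles and ciliary cargo and are also made in cells that do not divide. In liver cancer cells the mitotic group is best known as part of the proliferation signature.

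Counts differed widely among the members. KIF5B, the heavy chain of conventional kinesin, had 69901 counts in the shRBM39 IP, 38116 in the shRBM39 input, 60430 in the shControl IP and 23986 in the shControl input, and KIF1C, a vesicle motor, had 49630, 15968, 41474 and 13465 in the same order. Every mitotic member had at least 672 counts in each library. KIF28P, annotated as a pseudogene, stood just inside the limit with 8, 12, 11 and 16 counts in that order, as did KIF6, a motor of cilia, with 42, 12, 26 and 8. The other 34 members had at least 10 counts in all 4 libraries. Just outside stood KIF4B, an intronless copy of KIF4A, with 16, 2, 2 and 2 counts, whose reads could also come from KIF4A. KIF17, KIF25 and KIF1A had no more than 6 counts in any library, and KIF2B, KIF19, KIF26A and KIF4CP had 0 in all 4. Levels are set side by side only within a gene, because transcript lengths were not used here.

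**Figure D1:**
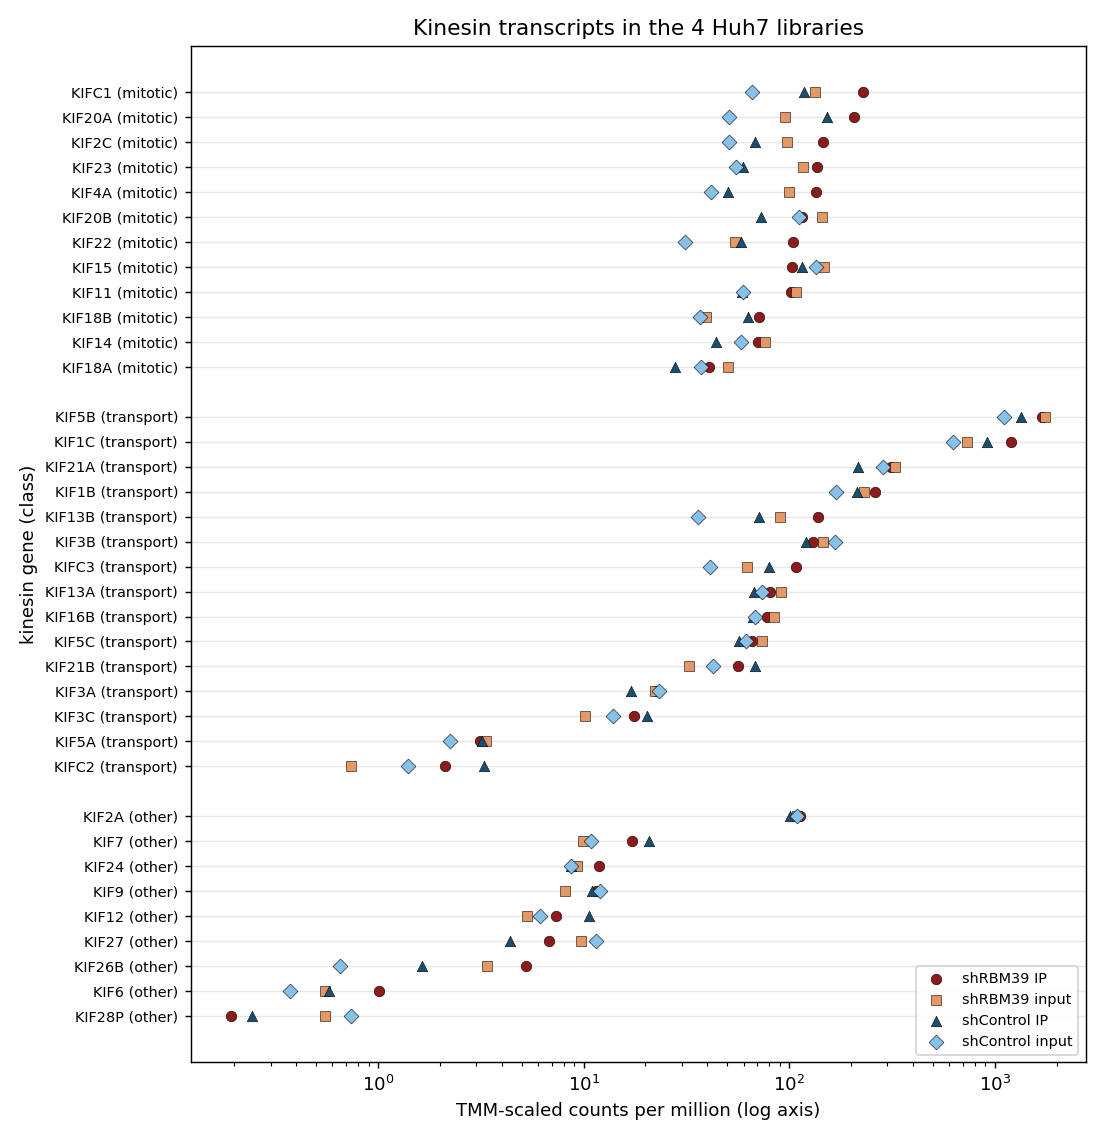
TMM-scaled level in CPM (log axis) of the 36 kinesin genes in each library, grouped by class and ordered by the shRBM39 IP; each point is 1 library. KIFC1, KIF20A, KIF2C, KIF23 and KIF4A have both shRBM39 points right of the shControl point of the same fraction, and KIF5B and KIF1C lie far to the right of the rest.

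The first comparison asked how the input RNA differed between the cultures. Mitotic kinesins had higher ratios than the other classes, 3 of the 12 past 2-fold, and transport kinesins spread to both sides of equality. All 12 mitotic members had a log2 ratio of shRBM39 over shControl above 0, as did 48.9% of the 19210 features compared. Their median was 0.84, against 0.26 for the 15 transport kinesins, -0.12 for the 9 others and -0.013 for all features. The counting interval lay above equality for 11 of the 12, the exception being KIF18B, and it did so for 28.5% of all features. All features include rows of few counts, whose intervals are wider. Here and below, shares over all features were not matched for depth.

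A difference was called where it was at least 2-fold, which is 1 on the log2 scale, and its interval excluded equality. By that rule 5 kinesins were higher in the shRBM39 input and 0 lower, where 5.10% of all features were called higher and 5.74% lower. The mitotic 3 were KIF4A, KIF23 and KIFC1. KIF4A, a motor that binds chromosomes and organises the central spindle, had 99.9 CPM in the shRBM39 input against 41.7 in the shControl input, a log2 ratio of 1.26 (1.15 to 1.37). KIF23, the motor of the centralspindlin complex in cytokinesis, had 116 CPM in the shRBM39 input against 55.3 in the shControl input, a log2 ratio of 1.07 (0.97 to 1.18). KIFC1, which walks to the minus end and gathers extra centrosomes into 2 poles, had 134 CPM in the shRBM39 input against 66.0 in the shControl input, a log2 ratio of 1.02 (0.93 to 1.11). KIF23 and KIFC1 stood at 0.99 and 0.94 with libraries scaled to total counts, just under the limit.

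The next 4 mitotic members came close to a doubling. KIF2C, which takes tubulin off microtubule ends at kinetochores, had 98.0 CPM in the shRBM39 input against 50.8 in the shControl input (log2 0.95, 0.84 to 1.06). KIF20A, which carries the chromosomal passenger complex to the midzone, had 95.6 CPM in the shRBM39 input against 50.7 in the shControl input (log2 0.91, 0.81 to 1.02). KIF11, the motor that pushes the spindle poles apart, had a log2 ratio of 0.86 (0.76 to 0.96), and KIF22, a chromosome arm motor, one of 0.81 (0.67 to 0.95). These 7 genes thus lay between 0.81 and 1.26. A gap then followed to the other 5 mitotic members.

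KIF18A, which damps chromosome movement in metaphase, stood at 0.44 (0.31 to 0.58), KIF14 and KIF20B, both of cytokinesis, at 0.39 and 0.37. KIF15, which can stand in for KIF11, stood at 0.13 (0.06 to 0.21), and KIF18B, a motor of astral microtubule ends, at 0.10 (-0.04 to 0.24). The mitotic group therefore did not shift by 1 common factor. KIF18B had 39.3 CPM in the shRBM39 input against 36.7 in the shControl input, a difference within counting error.

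Most partners of these motors in mitosis had input ratios above 0, but few reached the call. Of 18 listed partner genes, 16 were above 0 in the shRBM39 input, against 48.9% of all features, and 14 had an interval above equality, against 28.5%. MAD2L1 of the spindle checkpoint had one below, at -0.33. CDK1 (-0.040), BUB1 (0.029) and BIRC5 (0.046), a mitotic kinase, a checkpoint kinase and a passenger complex subunit, were within counting error. The median was 0.56. INCENP, a scaffold of the chromosomal passenger complex, was the 1 partner called higher, at 1.03, where 5.10% of all features were. PRC1, which binds KIF4A at the midzone, stood at 0.98, TPX2, which binds KIF11 and KIF15, at 0.98, and CENPE, a kinetochore kinesin outside the naming rule, at 0.53. In bulk RNA, more cells in mitosis and more of these transcripts per cell cannot be told apart, and the part of the cell cycle in these values was not tested.

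The other 2 called members lay outside the mitotic group. KIF13B, a kinesin-3 motor of polarised transport, had 90.3 CPM in the shRBM39 input against 36.2 in the shControl input (log2 1.32, 1.20 to 1.44), above every mitotic member. KIF26B, a kinesin known from kidney development in mice, rested on 74 counts in the shRBM39 input against 14 in the shControl input (log2 2.35, 1.55 to 3.33). It was the highest of the 36.

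The transport kinesins differed among themselves. KIF5B stood at 0.65 (0.63 to 0.68), with 1752 CPM in the shRBM39 input against 1113 in the shControl input, KIFC3, a minus-end motor of cell junctions, at 0.59, and KIF1B, known for moving mitochondria and synaptic vesicle precursors, at 0.45. The kinesin-2 motor subunits of ciliary and vesicle transport were level or lower between the inputs, unlike their accessory subunit. KIF3C stood at -0.46 (-0.72 to -0.21), KIF3B at -0.19 (-0.26 to -0.12) and KIF3A at -0.060 (-0.24 to 0.12). KIFAP3, the accessory subunit, stood at 0.69 (0.24 to 1.16) between the inputs and was called higher between the IPs, at 1.35 (1.05 to 1.66). Between the IPs KIF3A stood at 0.41 (0.27 to 0.55), KIF3B at 0.12 (0.06 to 0.17) and KIF3C at -0.22 (-0.36 to -0.08). KIF21B, which regulates microtubule growth, stood at -0.39 (-0.53 to -0.24) between the inputs, while its paralog KIF21A stood at 0.19 (0.14 to 0.24). In all, 10 transport kinesins had an interval above equality and 3 below, where 26.7% of all features lay below, and their range, -0.90 to 1.32, held that of the mitotic group, 0.099 to 1.26.

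**Figure D2:**
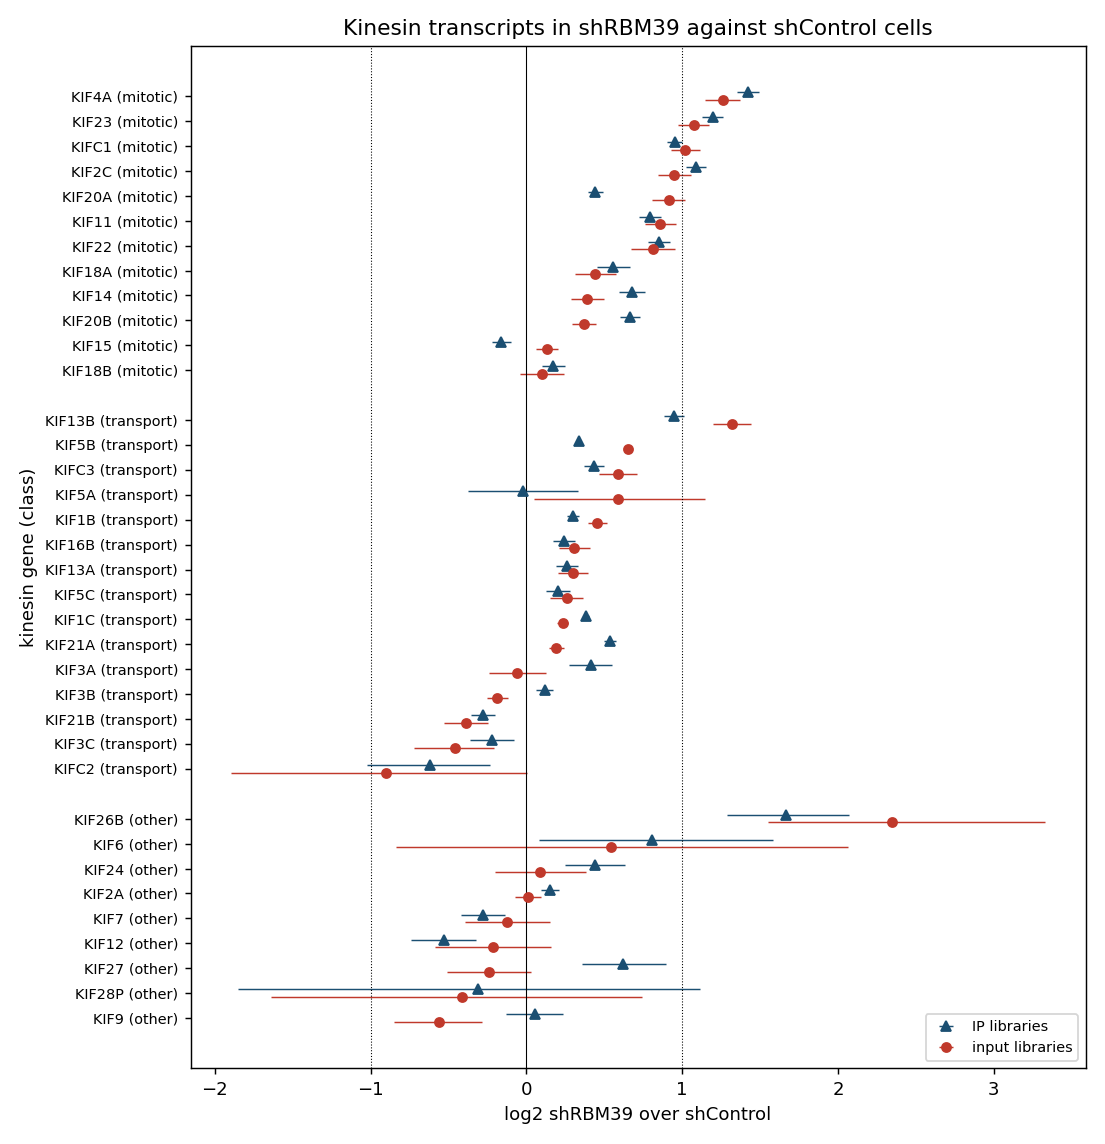
Log2 ratio of shRBM39 over shControl for each kinesin in the IP libraries (triangles) and in the input libraries (circles), with 95% counting intervals and dotted lines at 2-fold; genes are ordered by the input ratio within a class. The 12 mitotic circles lie right of 0, from 0.099 to 1.26, and the 15 transport circles reach from -0.90 to 1.32.

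The IP libraries compared the same 2 cultures in RNA taken with the RBM39 antibody. A ratio between the IPs combines the input ratio with any change of recovery, so it is no independent repeat of the input comparison. Mitotic kinesins had a median log2 ratio of 0.74 between the shRBM39 IP and the shControl IP, against 0.26 for transport kinesins, 0.15 for the others and -0.0068 for all features. A ratio above 0 was found for 11 of the mitotic 12 and 49.5% of all features. The same 11 had an interval above equality, as did 31.5% of all features, and KIF15 lay below at -0.16 (-0.22 to -0.10), where 31.3% of all features lay below. Across the family 4 members were called higher and 0 lower, where 6.61% of all features were called higher and 5.27% lower.

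The called members were KIF26B at 1.67 (1.28 to 2.07), KIF4A at 1.42 (1.35 to 1.49), KIF23 at 1.20 (1.13 to 1.26) and KIF2C at 1.09 (1.02 to 1.15). KIF4A had 135 CPM in the shRBM39 IP against 50.4 in the shControl IP, and KIF23 had 136 against 59.4 in the same order. KIFC1 missed the limit at 0.95, or 1.93-fold, with 228 CPM in the shRBM39 IP against 118 in the shControl IP. KIF20A had 208 CPM in the shRBM39 IP against 153 in the shControl IP, a ratio of 0.44 (0.40 to 0.49) that was smaller than its input ratio. This comparison is open to scaling: with total counts all features shifted by -0.27, the mitotic median was 0.46 and the transport median -0.014, and KIF4A and KIF26B remained called. Over all features 729 were then called higher and 1911 lower, against 1269 and 1012 under TMM. Of the partners, 16 of 18 were above 0. INCENP (1.60), TPX2 (1.3), BUB1B (1.15) of the spindle checkpoint, and NUSAP1 (1.02), a spindle protein, were called higher.

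Because all 12 mitotic members had input ratios above 0, though of unequal size, the kinesin promoters were searched for the letters of the elements known to govern late cell cycle genes. The cell cycle genes homology region (CHR) binds the DREAM and MuvB complexes, and the CCAAT box binds NF-Y. The CHR was taken as TTTGAA or TTTAAA and the box as CCAAT, on both strands. TTTAAA is its own reverse complement. The windows were those of RefSeq on GRCh38.p14, from 250 bases before to 50 bases after each gene start, and 28 of the 36 members had at least 1. KIF5A, KIF13B, KIF21B, KIF26B, KIF27, KIF28P, KIFC2 and KIFC3 had none.

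The 150 bases before the gene start are shown for 4 mitotic members with both matches upstream of the start and for KIF5B, a transport kinesin, with CHR and CCAAT matches in capitals on either strand. The windows are chrX:70289954-70290103, plus strand, for KIF4A; chr15:69414199-69414348, plus strand, for KIF23; chr5:138178962-138179111, plus strand, for KIF20A; chr10:92592980-92593129, plus strand, for KIF11; and chr10:32056426-32056575, minus strand, for KIF5B.
KIF4A: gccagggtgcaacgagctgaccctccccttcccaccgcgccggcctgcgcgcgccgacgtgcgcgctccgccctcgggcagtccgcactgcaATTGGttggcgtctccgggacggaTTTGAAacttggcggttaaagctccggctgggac
KIF23: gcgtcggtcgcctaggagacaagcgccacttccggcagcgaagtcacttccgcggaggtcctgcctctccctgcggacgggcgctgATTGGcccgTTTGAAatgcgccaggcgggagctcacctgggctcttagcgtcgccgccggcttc
KIF20A: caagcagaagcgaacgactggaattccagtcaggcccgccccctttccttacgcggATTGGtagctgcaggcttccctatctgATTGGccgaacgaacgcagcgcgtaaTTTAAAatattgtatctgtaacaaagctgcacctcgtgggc
KIF11: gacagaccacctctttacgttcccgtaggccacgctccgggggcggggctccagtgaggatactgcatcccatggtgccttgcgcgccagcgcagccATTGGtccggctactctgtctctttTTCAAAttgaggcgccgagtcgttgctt
KIF5B: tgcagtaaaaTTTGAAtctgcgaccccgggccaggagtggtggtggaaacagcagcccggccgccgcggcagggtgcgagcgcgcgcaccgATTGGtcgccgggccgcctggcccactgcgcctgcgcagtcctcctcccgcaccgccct

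In KIF4A a CCAAT match in reverse begins 58 bases before the start and the CHR match 34 bases before it. KIF11 has the same order at 53 and 28 bases, KIF23 at 64 and 55 bases, and KIF20A has 2 CCAAT matches at 94 and 67 bases before a TTTAAA at 41. A second CHR match of KIF23, 211 bases before the start, lies outside the letters shown. In KIF5B the CHR match lies farther from the start than the CCAAT match, at 140 against 59 bases.

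A CHR match was present in 11 of the 12 mitotic kinesins (91.7%), 2 of 10 transport kinesins (20.0%) and 0 of 6 others with a window. It was present in 22.5% of the 11153 compared features with a window and in 27.9% of all 27305 genes of the promoter table. A CCAAT match was present in 10 mitotic kinesins (83.3%), 4 transport kinesins (40.0%) and 3 others (50%), against 43.0% of compared features and 39.7% of all genes. Both were present in 9 mitotic kinesins (75.0%), against 9.53% of compared features. KIF22 lacked a CHR match, and KIF2C and KIF15 lacked a CCAAT match. Of 14 partner genes with a window, 12 had a CHR match and 11 a CCAAT match.

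With a CHR match in 11 and a CCAAT match in 10 of the 12 mitotic members, the matches could hardly sort them by input ratio. KIF18B, at 0.10, has a CHR match 3 bases into the transcript and CCAAT matches 55 and 32 bases before the start, while KIF22, at 0.81, has a CCAAT match only. A match is a string of letters and is no evidence that a factor binds there.

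**Figure D3:**
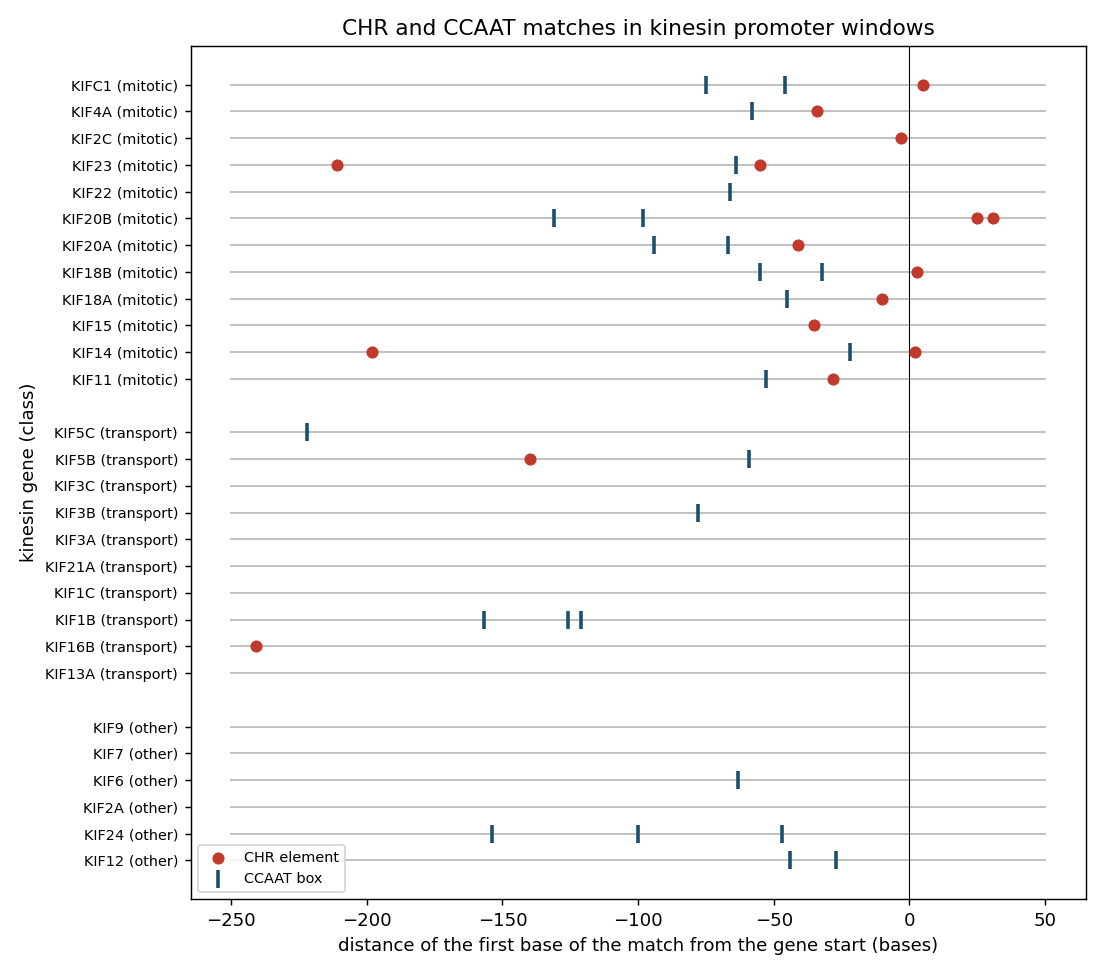
Position of CHR (circles) and CCAAT (bars) matches relative to the gene start in the RefSeq promoter windows of 28 kinesins, by class; the x axis is the distance of the first base of the match in bases, and genes with several windows (KIF1B, KIF5C, KIF6, KIF9, KIF12 and KIF22) have all matches on 1 line. Circles stand in 11 of 12 mitotic lines and in 2 of 10 transport lines.

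The next comparison asked which kinesin mRNAs were richer in the IP fraction than in the matching input. KIF20A led the mitotic group in both cultures, and KIF20B and KIF15 had ratios below 0 in both, each under 2-fold. In shRBM39 cells, 2 kinesins were called higher in the IP and 1 lower, where 5.29% of all features were called higher and 9.00% lower. In shControl cells 3 were called higher and 2 lower, where 7.70% of all features were called higher and 11.3% lower. The family's median was 0.29 in shRBM39 cells and 0.27 in shControl cells, against 0.022 and -0.0052 for all features.

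Smaller shifts were common in the family and outside it. In shRBM39 cells 22 kinesins had a ratio above 0, as did 51.5% of all features, and the interval lay above equality for 19 kinesins and 32.9% of features and below it for 12 kinesins and 30.0% of features. In shControl cells 20 had a ratio above 0, against 49.7% of all features, with intervals above equality for 19 kinesins and 34.1% of features and below it for 12 kinesins and 33.1% of features. The shares of kinesins above 0 were thus close to or moderately above those of all features.

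KIF20A had 208 CPM in the shRBM39 IP against 95.6 in the shRBM39 input, and 153 in the shControl IP against 50.7 in the shControl input. Its log2 recovery was 1.12 (1.05 to 1.19) in shRBM39 cells and 1.59 (1.50 to 1.68) in shControl cells. KIF20A overlaps CDC23, an anaphase promoting complex subunit gene, in the annotation (chromosome 5, 138179112 to 138187723 for KIF20A), so some reads could be shared. CDC23 itself had a log2 recovery of 0.093 (-0.0029 to 0.19) in shRBM39 cells and 0.51 (0.41 to 0.62) in shControl cells, below that of KIF20A.

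KIFC2, a minus-end motor known from neurons, was also called higher in both cultures, which held for 2.27% of all features. It had 88 counts in the shRBM39 IP against 16 in the shRBM39 input, and 148 in the shControl IP against 30 in the shControl input. Its log2 recovery of 1.50 (0.75 to 2.40) in shRBM39 cells and 1.22 (0.66 to 1.85) in shControl cells is wide because of these counts. KIF26B was called higher in shControl cells at 1.29 (0.50 to 2.27), on 74 counts in the IP against 14 in the input, and stood at 0.61 (0.23 to 1.02) in shRBM39 cells.

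At the low end, KIF27, a relative of the ciliary kinesin KIF7, was called lower in shControl cells. It had 4.40 CPM in the shControl IP against 11.5 in the shControl input (log2 -1.39, -1.66 to -1.11), and 6.79 CPM in the shRBM39 IP against 9.75 in the shRBM39 input (log2 -0.52, -0.78 to -0.26). KIF28P was called lower in both cultures on 8 to 16 counts, and neither call stood once counts were halved before the interval. The ratios of the remaining kinesins were under 2-fold in both cultures.

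**Figure D4:**
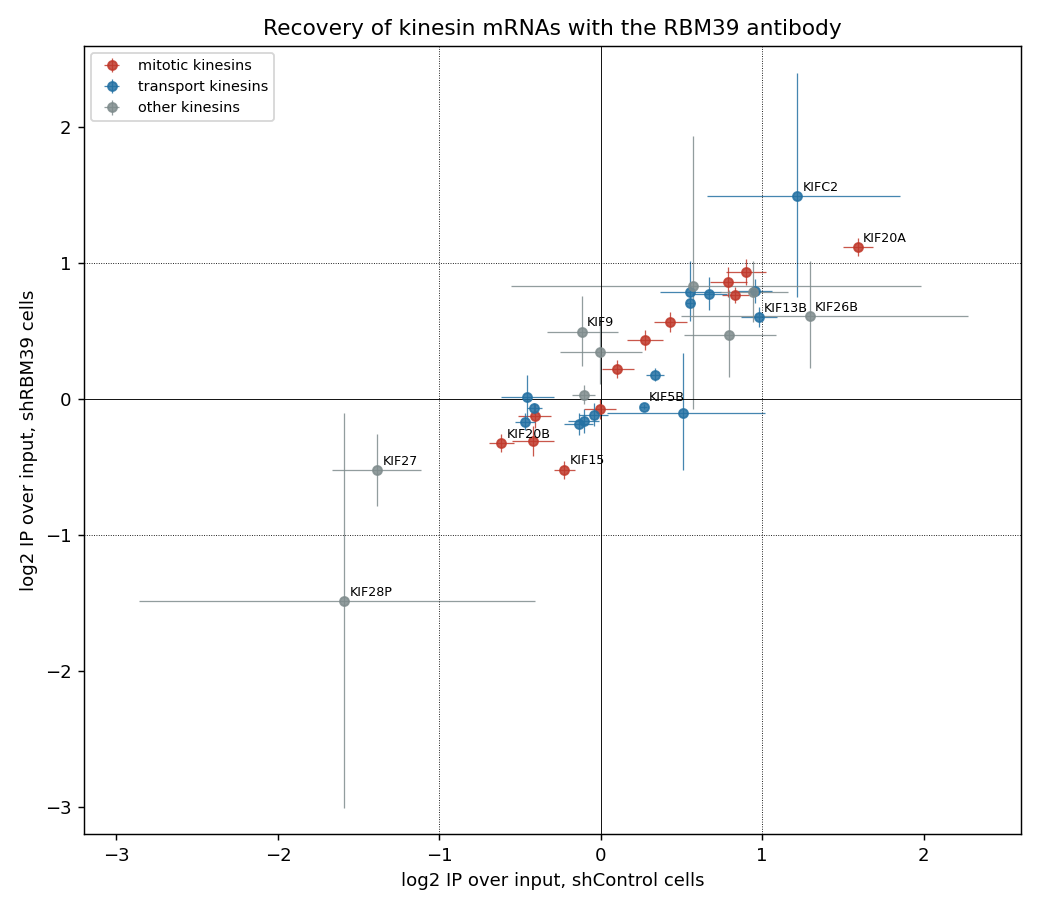
Log2 IP over input in shRBM39 cells (y axis) against shControl cells (x axis) for the 36 kinesins, coloured by class, with 95% counting intervals and dotted lines at 2-fold. KIF20A and KIFC2 lie past 2-fold on both axes, and KIF28P and KIF27 stand at the low end.

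A model of culture and fraction, with 1 residual degree of freedom, then joined the 4 libraries. Its only repeats of recovery were the 2 cultures, which carry different hairpins and are not replicates of 1 condition. Its p-values lean on spread shared across features and do not measure replicate error. Recovery was tested in it by the quasi-likelihood test of edgeR, with adjustment over all features (Benjamini-Hochberg). At an adjusted p under 0.05, 14 kinesins rose in the IP and 2 fell, where 19.2% of all features rose and 17.6% fell. The 14 were 5 mitotic, 6 transport and 3 other kinesins. Without the culture term edgeR called 0 kinesins and 0 of all features, with 9 of 36 kinesins and 4143 of 19210 features at an unadjusted p under 0.05. DESeq2 with the culture term called 12 kinesins higher and 2 lower, against 16.0% and 12.9% of the features to which it gave an adjusted p.

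Among mitotic kinesins KIF20A rose by 1.35 on the log2 scale (edgeR adjusted p = 7.1e-06), KIF22 by 0.92 (9.0e-05), KIF18B by 0.83 (0.00022) and KIFC1 by 0.80 (0.00057). KIF2C rose by 0.50 (edgeR adjusted p = 0.014, and 0.063 with total counts). KIF20B fell by 0.47 (edgeR adjusted p = 0.024, and 0.063 with total counts). KIF22 had 105 CPM in the shRBM39 IP against 54.8 in the shRBM39 input, and 58.1 in the shControl IP against 31.2 in the shControl input. KIF18B had 71.5 CPM in the shRBM39 IP against 39.3 in the shRBM39 input, and 63.4 in the shControl IP against 36.7 in the shControl input. For both genes each IP stood above each input.

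KIF23 and KIF4A, the mitotic members that differed most between the cultures, were close to their inputs. KIF23 had a log2 recovery of 0.22 (0.16 to 0.29) in shRBM39 cells and 0.10 (0.0048 to 0.20) in shControl cells, with an edgeR adjusted p of 0.42. KIF4A stood at 0.44 and 0.27, with an adjusted p of 0.071. KIF11 stood at -0.070 in shRBM39 cells and -0.0055 in shControl cells (adjusted p = 0.87). KIF15 stood at -0.52 and -0.23 (0.073), KIF18A at -0.31 and -0.42 (0.057) and KIF14 at -0.12 and -0.41 (0.18), in the same order.

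Of the transport kinesins, KIFC2 rose by 1.36 (edgeR adjusted p = 0.0039), KIFC3 by 0.88 (0.00016), KIF13B by 0.79 (0.00060), KIF21B by 0.73 (0.00067), KIF3C by 0.67 (0.0035) and KIF1C by 0.63 (0.019). KIFC3 had 108 CPM in the shRBM39 IP against 62.2 in the shRBM39 input, and 80.1 in the shControl IP against 41.3 in the shControl input. Paralogs differed from each other. KIF3C was called while KIF3A (-0.22, adjusted p = 0.31) and KIF3B (-0.32, 0.13) were not, and KIF21B was called while KIF21A (-0.24, 0.31) was not. The differences between paralogs were not tested. The conventional kinesin heavy chains KIF5A, KIF5B and KIF5C stood at 0.20, 0.11 and -0.13, with adjusted p from 0.51 to 0.74.

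Among the other kinesins KIF7, a regulator of Hedgehog signalling at the cilium, rose by 0.87 (edgeR adjusted p = 0.00046), KIF26B by 0.87 (0.031) and KIF12, a gene mutated in some inherited cholestasis, by 0.64 (0.016), while KIF27 fell by 0.95 (0.0018). KIF26B and KIF12 were the called members that DESeq2 did not call, with adjusted p of 0.13 and 0.099. KIF7 overlaps TICRR, which had more counts than KIF7 in all 4 libraries, so its reads are uncertain. KIF2A, a microtubule depolymerase, overlaps DIMT1, and KIF24, a centriole kinesin, overlaps NUDT2 and UBAP1. KIF2A and KIF24 stood at -0.036 and 0.18 (adjusted p = 0.88 and 0.49).

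Recovery of the mitotic kinesins went with the length of their genes. Across the 12, log2 recovery and log2 gene span with introns, from RefSeq, had a Pearson r of -0.85 and a Spearman rho of -0.84 in shRBM39 cells, and -0.87 and -0.80 in shControl cells. KIF20A spans 8.61 kb, KIF22 14.6 kb, KIFC1 18.4 kb and KIF18B 23.1 kb, and these were the 4 with the highest recovery. KIF15, KIF18A, KIF20B and KIF14 span 69.3 to 107 kb and had negative ratios in both cultures. KIF4A, the longest at 131 kb, did not follow the order.

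The same relation was weaker or absent elsewhere. Across the 36 kinesins rho was -0.34 in shRBM39 cells and -0.24 in shControl cells, and r was -0.23 and -0.18. For the 15 transport kinesins rho was -0.46 in shRBM39 cells and -0.29 in shControl cells, and r was -0.57 and -0.40. Over 14632 features with a RefSeq symbol rho was -0.16 and -0.14, and r was -0.047 and 0.016, in the same order. These values describe genes measured in the same 4 libraries, which are not independent. The part of transcript length, exon number or fragmentation in them was not tested.

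**Figure D5:**
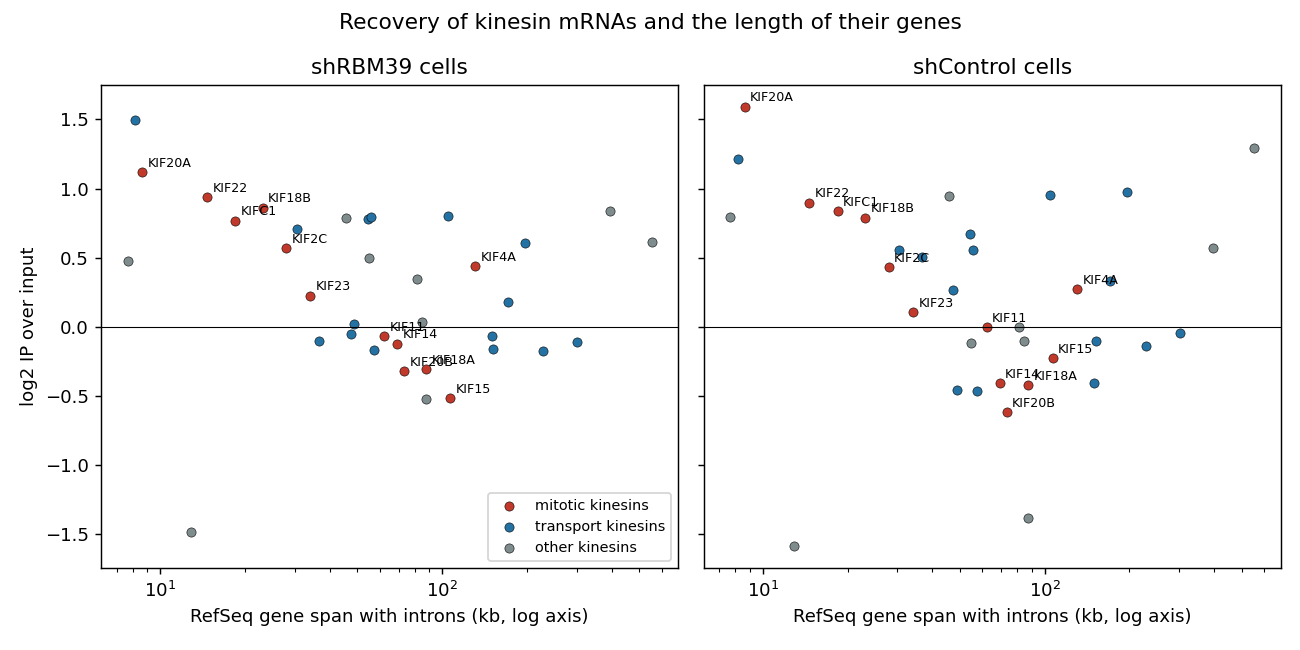
Log2 IP over input against RefSeq gene span with introns (kb, log axis) for the 36 kinesins in shRBM39 cells (left) and shControl cells (right), coloured by class, with mitotic members named. Mitotic points fall from KIF20A at 8.61 kb towards KIF15 at 107 kb, and KIF4A at 131 kb lies above that line.

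The last comparison asked whether recovery differed between the cultures. The difference, shRBM39 minus shControl, was under 2-fold for all 36 kinesins under TMM scaling, so 0 were called higher and 0 lower, where 4.39% of all features were called higher and 2.74% lower. It ranged from -0.68 for KIF26B to 0.86 for KIF27, and 21 kinesins had a value above 0, as did 49.5% of all features. The interval lay above 0 for 13 kinesins and 19.7% of features and below 0 for 6 kinesins and 21.5% of features. The 13 include KIF23 and KIF24, whose lower bounds were 0.0014 and 0.0066. With total counts, a value above 0 was left for 2 of 12 mitotic, 5 of 15 transport and 4 of 9 other kinesins. Under TMM these were 8, 7 and 6. For mitotic kinesins the median was 0.096 and the range -0.47 to 0.29, and with total counts the median turned to -0.098, while 570 features were called higher and 887 lower, against 843 and 526 under TMM. Their recovery in the 2 cultures had a Pearson r of 0.95 across the 12 genes, against 0.89 across the 36 kinesins and 0.64 across all 19210 features. All features include rows of few counts, whose ratios vary more, and neither these correlations nor the shares called were matched for depth.

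KIF20A had the lowest mitotic difference, -0.47 (-0.59 to -0.36), and KIF15 followed at -0.29 (-0.39 to -0.20). KIF20B and KIF14 stood at the other end at 0.29 each, with intervals of 0.19 to 0.39 and 0.15 to 0.42. KIF27 at 0.86 (0.49 to 1.23), KIF9, a kinesin of motile cilia, at 0.62 (0.29 to 0.95) and KIF3A at 0.47 (0.25 to 0.70) led the other classes. All of these counting intervals exclude 0, but without replicates the spread between cultures is unknown.

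Lists of proteins that work with kinesins gave a setting for these values. All 11 tubulins examined, the subunits of the track, rose in the IP in edgeR's test, with a median of 0.84. Of all features 19.2% rose in it and 17.6% fell. By the pairwise rule 5 tubulins were called higher in shControl cells and 1 in shRBM39 cells, against 7.70% and 5.29% of all features. Of 17 measured cargo adaptors and light chains, 9 rose and 3 fell in edgeR's test, with a median of 0.44. With DESeq2 or with total counts 6 of them rose. The light chain KLC3 had a log2 recovery of 1.18 in shRBM39 cells and 1.23 in shControl cells, and KLC2, another light chain, 0.82 and 1.04 in the same order. Of 19 subunits and regulators of dynein, the motor that walks towards the minus end, 6 rose and 0 fell, and 3 rose with DESeq2 or with total counts. The 6 include NDEL1, a dynein regulator, whose log2 recovery was 1.98 in shRBM39 cells and -0.10 in shControl cells (DESeq2 adjusted p = 0.47). Of the 18 mitotic partners 3 rose and 1 fell, and the log2 recovery of CENPE was -0.61 in shRBM39 cells and -1.05 in shControl cells. Between the inputs, the dynein heavy chain DYNC1H1 (1.19) and the dynactin subunit DCTN1 (1.22) were called higher in shRBM39 cells. The dynein list had a median of 0.055 and the adaptor list one of -0.11. Of the adaptor list, the light chain KLC4 was called higher at 1.01 (0.81 to 1.22). HAP1 was called lower at -2.08, on 2 counts in the shRBM39 input against 10 in the shControl input. The tubulins had a median of 0.61 there, above that of the mitotic partners, with 8 of 11 intervals above equality and 0 below. TUBB3 (1.38) and TUBA1C (2.01-fold) were called higher. Over all features, 5.10% were called higher and 5.74% lower between the inputs, with 28.5% of intervals above equality and 26.7% below.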

How the data were processed

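The authors deposited raw counts per gene symbol, whole numbers for 4 libraries, with 0 columns of other samples. The hg38 build and the programs HISAT2 2.0.4, StringTie 1.3.4d and cutadapt 1.9 come from what the submitters' processing notes name. How reads were counted, and whether by strand, is not stated in the labels, so reads of overlapping or antisense genes cannot be told apart. Of counts from 3 to 6, 71.4% to 75.6% were even, which mates counted singly would give, so halved counts were an alternative.

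Rows reaching 10 counts in 2 or more libraries were kept and scaled by TMM (edgeR 4.0.16, R 4.3.3). Log2 ratios used counts plus 0.5, with exact conditional (Clopper-Pearson) 95% intervals, or counting standard errors for differences of ratios. These cover counting error only, since reads are not independent molecules. DESeq2 1.42.0 was the alternative test. On simulated counts for IP against input over both cultures (19210 features), edgeR found 58 of 100 genes altered by 2-fold and 100 of 100 by 4-fold, and called 9 unaltered ones. The simulated counts had the same assumed spread for every feature and no difference between the cultures. They therefore give no error rate for the real libraries. Positions and promoters are RefSeq's on GRCh38.p14. Every kinesin row could be named, and of the other lists the called, highest and lowest genes, with PRC1, TPX2, CENPE, KIFAP3, NDEL1, CDK1, BUB1 and BIRC5 chosen after their values were seen. Members and lists were chosen with earlier results of these data known.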

Additional observations from a re-analysis of the deposited data

Results flagged for a closer look

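KIF5B was the only kinesin with counting intervals on opposite sides of equality in the cultures. Its log2 IP over input was -0.053 (-0.07 to -0.04) in shRBM39 cells and 0.26 (0.24 to 0.29) in shControl cells, a difference of -0.32 (-0.35 to -0.29). With 1 library a group this difference was not tested against replicates. Without the filter on low counts the shRBM39 value was 0.065, so the opposite signs depend on the scaling, while the difference was -0.29.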

How the results depend on the processing

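With 1 library a group there was no replicate to leave out. The edgeR model pairs the IP and input of each culture through its culture term, which rests on the hairpin named in the labels, and without that term 0 kinesins were called higher and 0 lower, against 14 and 2 with it. With total counts, 6 kinesins were higher in the IP of shControl cells, 3 between the inputs and 2 between the IPs, and 1 was lower in edgeR's test. The mitotic and transport medians were then 0.22 and -0.097 for recovery in shRBM39 cells, -0.098 and -0.23 for the difference of recovery, and 0.46 and -0.014 between the IPs. Without the filter, 4 kinesins were higher and 0 lower in the IP of shRBM39 cells, 6 higher in that of shControl cells, 1 lower in the shRBM39 IP than in the shControl IP, and 1 lower in edgeR's test. The medians without it, which include rows of few counts such as KIF4B, were 0.56 and 0.14 for mitotic and transport recovery in shRBM39 cells, 0.13 for the transport difference and 0.83 for mitotic kinesins between the IPs. With halved counts 0 kinesins were lower in the IP of shRBM39 cells and 1 in that of shControl cells. Of the counts over all kinesins and the mitotic and transport medians, the others stayed within 1.5 times or, for medians, within the typical counting interval of a member. In edgeR's lists, the dynein 6 higher became 3 and the adaptors' 9 higher became 6 with total counts and with DESeq2. The other kinesins' 3 higher became 1 with DESeq2. The mitotic 5 higher became 4 with total counts and 6 without the filter. The mitotic 1 lower became 0 under both settings. The partners' 3 higher became 5 without the filter. Over all features, total counts gave 718 higher and 2164 lower for recovery in shRBM39 cells (1016 and 1729 under TMM) and 1876 and 1862 in shControl cells (1479 and 2173). All 12 mitotic kinesins stayed above 0 between the inputs under each scaling. Total counts moved the log2 ratios of all features by -0.27 to 0.080; beyond that the cause was not tested.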
